A study of Mus musculus with 7 samples.

Results

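Glia of the ventricular-subventricular zone (V-SVZ) were split by their UMI count of Prm1 within each of 4 libraries whose mice carried hGFAP-Cre. The Cre libraries were 3 of Prdm16 cKO mice (hGFAP-Cre+/-; Prdm16flox/flox) and 1 of DKO mice (hGFAP-Cre+/-; Prdm16flox/flox; Vcam1flox/flox), and 3 control libraries came from mice with floxed alleles and no Cre, given as Prdmflox/flox in the labels and as Prdm16 fl/fl in the study's methods. Each library was a pool of 2 to 3 mice of both sexes, aged P31 to P33, from which the lateral wall V-SVZ was taken for 3′ single-cell RNA-seq. A cell was taken as glia when it had 500 to 7000 detected genes, at most 10% mitochondrial UMIs, 5000 to 20000 UMIs in all, at least 2 UMIs of Slc1a3 and none of Ccdc153, Tmem212, Top2a, Mki67 or Mog, with at most 1 of Dcx. Marked glia had at least 3 Prm1 UMIs and unmarked glia had 0. Of 21394 quality-filtered cells in the Cre libraries, 1774 passed these limits, of which 332 were marked, 974 were unmarked and 468 had 1 or 2 Prm1 UMIs and entered neither class. Since the Cre is driven by a human GFAP promoter that is active in radial glia from the embryonic stage, recombination is not limited to the postnatal V-SVZ, and 3′ counts do not show whether the floxed exons were removed in a given cell. The DKO group is 1 library and has no replicate.

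Slc1a3 encodes a glutamate transporter that astrocytes and V-SVZ neural stem cells (NSCs) share. The NSCs, called type B cells, keep radial glial features and the intermediate filaments Gfap, Vim and Nes, whereas astrocytes of the neighbouring parenchyma clear glutamate, buffer potassium and supply lipids to neurons. Prm1 (chromosome 16, 10796326 to 10805839, minus strand, GRCm38) encodes protamine 1, which packs DNA in sperm and has no known role in glia. Protamine 1 gene segments are a common source of introns and polyadenylation signals in transgene vectors, so reads assigned to Prm1 in a Cre library may come from the transgene; the transgene sequence was not used here and the source of these reads was not tested. If they do come from it, the marker and the endogenous Gfap gene are driven by related promoters, and a link between Prm1 and Gfap would be built into the split.

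The 7 libraries held 43346 quality-filtered cells, 1868 to 9502 per library, with median depths of 4959.5 to 8317.5 UMIs. In the control libraries 664, 326 and 913 cells passed the glial limits, and none of these 1903 cells had a Prm1 UMI, which allows a share of cells with a UMI of up to 0.329% to 0.920% per library. No cell barcode was shared between the glia of any pair of Cre libraries. The highest number shared by all barcodes of any library pair was 70.

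Prm1 counts among glia of the Cre libraries ran without a gap from 0 upwards. Marked glia made up 10.7% of gated glia in cKO replicate 1 (exact Clopper-Pearson 95% interval 8.29% to 13.5%), 26.0% in cKO replicate 2 (19.6% to 33.3%), 36.8% in cKO replicate 3 (32.4% to 41.5%) and 10.6% in the DKO library (8.19% to 13.3%), where the intervals cover counting error only. Just inside the threshold, 13, 10, 37 and 17 cells had exactly 3 Prm1 UMIs, and just outside it 36, 22, 54 and 42 cells had 2, in the same order of libraries, in which values are given throughout. At the upper end 20, 20, 73 and 19 cells had 7 or more, and the highest counts were 22, 23, 40 and 21. The members were chosen by these Prm1 UMI counts and by the UMI counts that set the glial limits, so those values are a description only.

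**Figure D1:**
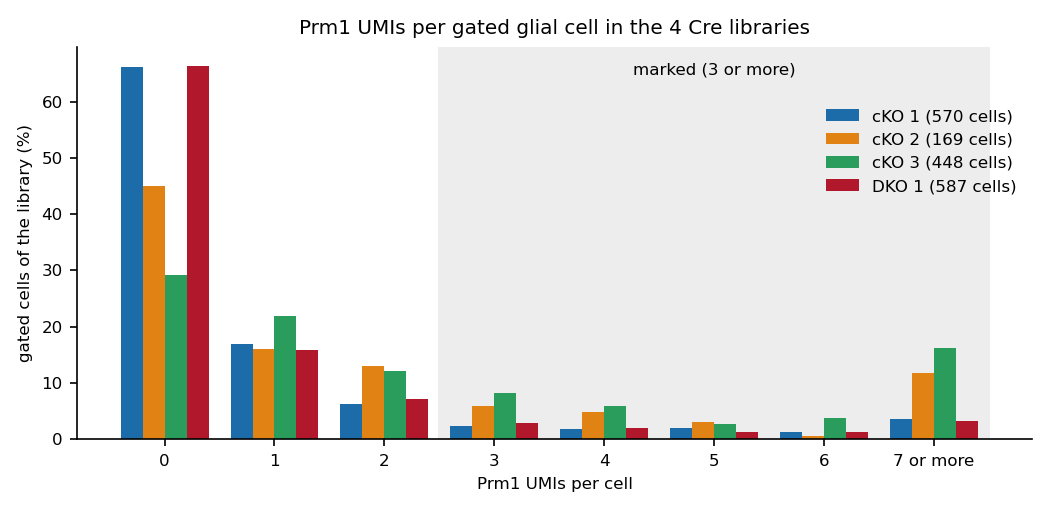
Share of gated glia (%, bars) by Prm1 UMIs per cell from 0 to 6 and 7 or more in each of the 4 Cre libraries, with the range taken as marked shaded. Every count from 0 to 7 or more holds cells in each library, so that the threshold of 3 UMIs does not lie in a gap.

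Prm1 was not limited to glia. Neuroblasts of the 4 Cre libraries had at least 1 Prm1 UMI in 12.9% to 26.0% of cells and at least 3 in 0.988% to 6.15%. Endothelial cells, which should not derive from radial glia, had at least 1 UMI in 2.17% to 4.64% of cells and at least 3 in 0%, which allows shares of up to 1.55% to 4.84%. Median depths were 6660 to 11271 UMIs in gated glia, 6992 to 8524.5 in neuroblasts and 8438 to 9200 in endothelial cells, so that the endothelial share was read at a similar depth. Microglia, which also arise outside the neural lineage, had at least 1 UMI in 0% of 18, 0% of 6, 14.7% of 34 and 6.06% of 33 cells (median depths of 6556 to 10086 UMIs), and none had 3, which allows shares of up to 8.82% to 50.0%. Oligodendrocytes, which can descend from radial glia, had at least 1 UMI in 1.28% of 391, 16.7% of 6, 12.6% of 111 and 8.09% of 173 cells. At least 3 were present in 0, 0, 1 and 2 of these cells, where 0 of 6 allows a share of up to 50.0%. Gated glia had at least 1 UMI in 33.9%, 55.0%, 70.8% and 33.6% of cells. In the control libraries a single neuroblast had a single Prm1 UMI.

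Marked cells were deeper than unmarked cells. Their median UMIs were 7702, 15291, 12002 and 11644.5 against 6501, 8539.5, 9200 and 9178.5, higher in 4 of 4 libraries by 3305 ± 2399 (SD of the paired differences, n = 4). Median genes per cell, 3017, 4326.5, 3771 and 3843.5 against 2696, 3158, 3174 and 3305, and the median mitochondrial share, 6.09%, 5.58%, 4.31% and 3.23% against 5.39%, 5.0%, 4.30% and 3.06%, were also higher in each library. The gate set limits on all 3 measures, so they are a description with no test. A requirement of 3 UMIs selects deeper cells by itself, so the fits were repeated with equal numbers of marked and unmarked cells in each range of depth, and calls that this changed are given below.

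The label glia did not hold for all gated cells. Of the unmarked cells 121 of 974 (12.4%) had under 10 UMIs in all of 7 astroglial genes (Slc1a2, Aldoc, Gja1, Aqp4, Sox9, Ntsr2 and Cldn10), against 5 of 332 marked cells (1.51%). At least 10 UMIs of mural cell genes were present in 66 unmarked cells, of endothelial genes in 54, of fibroblast genes in 46 and of microglial genes in 25, against 1, 4, 0 and 1 marked cells. In the other direction, 58 marked cells (17.5%) and 24 unmarked cells (2.46%) had at least 10 UMIs of ependymal genes. A stricter gate was therefore added after seeing the data, which asks for at least 10 UMIs of the astroglial genes in all. It also allows at most 9 UMIs of each list of ependymal, neuroblast, dividing cell, oligodendrocyte precursor, microglial, endothelial, mural and fibroblast genes. The lists of oligodendrocytes, neurons and blood were not limited. Stricter values of genes that this gate reads are a description. It kept 43, 28, 118 and 38 marked cells (227 in all) and 298, 46, 70 and 312 unmarked cells (726 in all), and its values are given beside those of the full gate.

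Across 9569 genes tested on summed UMIs, 424 (4.43%) were higher and 364 (3.8%) lower in marked than in unmarked glia of the same library (edgeR quasi-likelihood test with library as a block, Benjamini-Hochberg adjusted p under 0.05), and the median log2 fold change of all genes was -0.0024. In the stricter gate 6914 genes could be tested, of which 117 (1.69%) were higher and 92 (1.33%) lower, with a median of -0.0011. These stricter counts were 39 and 16 without the DKO library, 42 and 34 without cKO replicate 1, 81 and 61 without cKO replicate 3, 58 and 24 with DESeq2 and 10 and 6 without the library block. Of the genes called with all gated cells, 80 higher and 34 lower were called in the stricter gate too. Without cKO replicate 3 the counts were 130 higher and 152 lower, and without cKO replicate 1 or the DKO library 220 and 199 were higher. Among cells with 0 to 2 Gfap UMIs they were 89 and 201. Gfap led the higher genes of the full gate, and the lower genes were led by genes of fibroblasts and microglia.

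Gfap, Vim and Nes, 3 intermediate filament genes, were higher in marked glia. Of 6 listed filament genes 4 were tested and 3 were called higher, with a median log2 fold change of 1.08, beside 4.43% of all genes higher. Gfap encodes the filament protein for which astrocytes are stained. It stood at 760.0, 688, 959 and 798 CPM (summed UMIs scaled to the library total, with TMM factors) in marked glia and at 139, 101, 98.9 and 127 CPM in unmarked glia. Every marked sum lay above every unmarked sum, as for 5.88% of all genes tested (5.72% had every marked sum below), with a log2 fold change of 2.78 ± 0.14 (SE) and an adjusted p of 2.9e-07. With the stricter gate the difference was 2.33 ± 0.17 (adjusted p = 2.6e-05). Vim, the filament protein of radial glia, was at 1123, 806, 988 and 1005 CPM against 363, 441, 399 and 321 CPM, a log2 difference of 1.37 ± 0.14 (adjusted p = 5.6e-05) and 1.09 ± 0.13 in the stricter gate. Nes, the filament of neural stem and progenitor cells, was 0.79 ± 0.18 higher (adjusted p = 0.017) and 1.43 ± 0.20 higher in the stricter gate (adjusted p = 3.0e-04). With equal cells per depth range the full gate gave 0.42 for Nes (adjusted p = 0.29) and the stricter gate 1.74 (adjusted p = 5.6e-05). Synm, a filament partner, was not called at 0.19 ± 0.34 (adjusted p = 0.81).

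The Gfap level rose with the Prm1 count up to the threshold, and above it in 1 of 4 libraries. In cells with 0, 1 to 2, 3 to 6 and 7 or more Prm1 UMIs, Gfap stood at 145, 287, 776 and 704 CPM in cKO replicate 1 (unscaled sums, here and in the other libraries). It was at 103, 312, 815 and 548 CPM in cKO replicate 2, at 98.1, 419.8, 523 and 1318 CPM in cKO replicate 3 and at 131, 273, 913 and 530.0 CPM in the DKO library, so that from 3 to 6 to 7 or more UMIs it was lower in 3 libraries and higher in cKO replicate 3. At least 3 Gfap UMIs were present in 44.3%, 43.2%, 48.5% and 45.2% of marked cells, in 20.5%, 28.6%, 34.2% and 25.9% of cells with 1 or 2 Prm1 UMIs, and in 8.22%, 10.5%, 10.7% and 10.8% of unmarked cells. Marked glia exceeded unmarked glia by 35.2 ± 2.20 percentage points (SD, n = 4 libraries; higher in 4 of 4, two-sided exact sign-flip permutation p = 0.13, the smallest that 4 libraries allow). Median UMIs of marked cells were 1.18 to 1.79 times those of unmarked cells, so these shares were not read at equal depth. Endothelial cells, which should lack Gfap, reached 3 Gfap UMIs in 0% to 0.515% of cells. Their median depths were 8438, 9200, 8537.5 and 8749 UMIs against 7702, 15291, 12002 and 11644.5 in marked glia, so this comparison was not at equal depth either. Among cells with 0 to 2 Gfap UMIs, the marked to unmarked log2 differences were 0.61 for Vim (adjusted p = 0.055), 1.42 for Padi2 (adjusted p = 0.0041) and -1.19 for Fam13c (adjusted p = 0.011), 2 genes described below, so that Vim missed the threshold there.

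**Figure D2:**
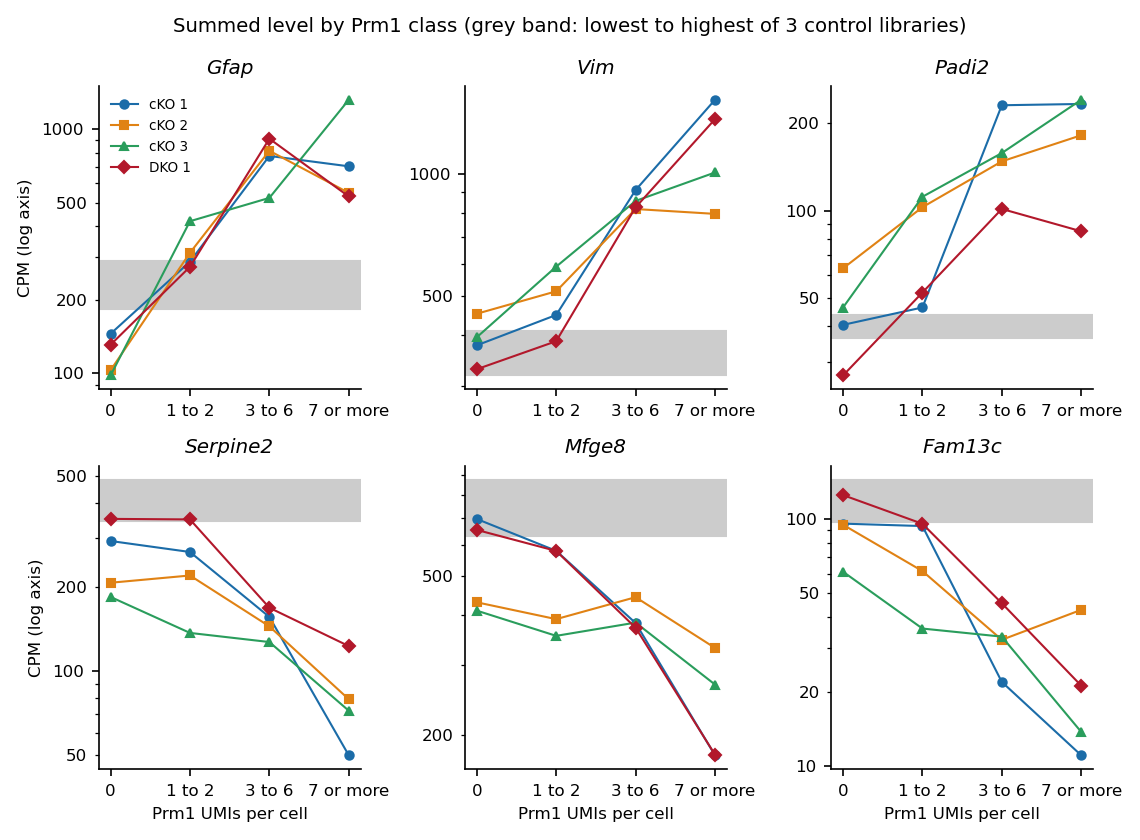
Summed level (CPM, log scale) of Gfap, Vim, Padi2, Serpine2, Mfge8 and Fam13c by Prm1 UMIs per cell, with a line for each Cre library. Gfap, Vim and Padi2 are higher in cells with 3 or more Prm1 UMIs than in cells with 0 in each library, Serpine2 and Fam13c are lower in each library, and Mfge8 is lower in each except at 3 to 6 UMIs in cKO replicate 2.

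Socs3, among the genes most raised in both gates, encodes a feedback inhibitor of cytokine signalling through JAK and STAT3. It was at 445, 128, 245 and 305 CPM in marked and 36.3, 41.5, 53 and 41.1 CPM in unmarked glia, with every marked sum above every unmarked one and a log2 difference of 2.71 ± 0.32 (adjusted p = 0.0056). Its stricter value was 3.77 ± 0.45 (adjusted p = 0.035), and 2 of the 4 fits that left out a library called it there, with log2 differences of 3.22 to 4.54. Stat3 itself was 1.12 ± 0.15 higher (adjusted p = 6.7e-04) and 1.03 ± 0.19 higher in the stricter gate (adjusted p = 0.0049), a gene looked up after the Socs3 values were seen. Gfap and Socs3 are known targets of STAT3, whose motif is often written TTCNNNGAA and reads the same on both strands. In RefSeq promoter windows of GRCm38.p6, 250 bases before to 50 after the start, 2582 of 27025 genes (9.554%) have a window that holds that motif. Among the 12 genes most raised in the stricter gate it was in 3 of 9 found in the table, Socs3, Zfp36 and Gfap. Among the 12 most lowered it was in 1 of 11, Phactr1. The genes were picked on these data, sites farther from the start were not searched, and a part of STAT3 was not tested. The stretches around the matches of Gfap and Socs3 are shown because these genes headed the higher genes of the full gate. They run 5′ to 3′ on the minus strand, with the match in capitals.
Gfap, chr11:102897176-102897242: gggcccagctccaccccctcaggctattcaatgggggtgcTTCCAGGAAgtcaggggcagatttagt
Socs3, chr11:117969472-117969560: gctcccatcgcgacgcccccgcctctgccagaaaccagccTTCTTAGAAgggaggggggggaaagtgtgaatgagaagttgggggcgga
The first base of the match lies at -2 from the listed start in Gfap and at -154 in Socs3, whose listed start of 117969366 differs from the nearest start in GENCODE vM21, 117969451. A match describes these letters and is not a measured binding site.

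Immediate early genes, which cells switch on within minutes of a stimulus and which tissue dissociation also raises, were called in 1 direction only. Of 16 listed genes 15 were tested and 5 were called higher, none lower, with a median log2 fold change of 0.78, where 4.43% of all genes were higher. In the stricter gate 9 of 13 were called higher, where 1.69% of all genes were, and the median was 2.02. Fos, a subunit of the AP-1 transcription factor, was 1.44 ± 0.15 higher (adjusted p = 9.6e-05). Its stricter value was 2.37 ± 0.34, which missed the threshold (adjusted p = 0.051). Junb, its partner, was at 1092, 527, 752 and 996 CPM against 90.4, 39.7, 141 and 191 CPM in the stricter gate, 2.92 ± 0.26 higher (adjusted p = 0.0034). Every marked sum of Junb lay above every unmarked sum there, as for 3.36% of genes tested in that gate. With all gated cells its value was 1.53 ± 0.44 (adjusted p = 0.14), with equal cells per depth range 1.55 (adjusted p = 0.01), and with equal cells per depth range in the stricter gate 2.74 (adjusted p = 0.16). Zfp36, which destabilises cytokine mRNAs, was 2.96 ± 0.16 higher in the stricter gate (adjusted p = 1.9e-10) and 1.24 ± 0.75 in the full gate (adjusted p = 0.46).

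Several of these genes were called in the stricter gate and not in the full gate. Klf2, a transcription factor that endothelial cells and macrophages also express strongly, was -0.89 ± 0.72 with all gated cells (adjusted p = 0.58) and 2.33 ± 0.33 in the stricter gate (adjusted p = 0.0036), of opposite sign. Klf4 was at 0.17 ± 0.48 and 2.02 ± 0.27, Btg2 at 0.42 ± 0.18 and 1.68 ± 0.23 and Egr1 at 0.78 ± 0.21 and 1.91 ± 0.25, each called in the stricter gate and not in the full gate (stricter adjusted p = 1.7e-04, 0.0093 and 0.016). Of the 4 stricter fits without a library, Klf2 and Klf4 were called in 4 and Btg2 and Egr1 in 3. Jun was called in both, at 0.86 ± 0.18 and 1.72 ± 0.18. Cebpd, a transcription factor of the acute-phase response, was 1.55 ± 0.17 higher in the stricter gate (adjusted p = 1.3e-04). The immediate early genes summed to 7837, 4409, 5579 and 8980 CPM in marked and 3057, 3981, 4080 and 4105 CPM in unmarked glia of the full gate. Control glia were at 4468 to 5175 CPM, so the unmarked sums lay below the control range in each Cre library. In the stricter gate the median log2 fold change of the list against control glia was 0.775 in marked and -1.52 in unmarked cKO glia. Part of the difference between the classes thus lay in a low unmarked class.

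**Figure D3:**
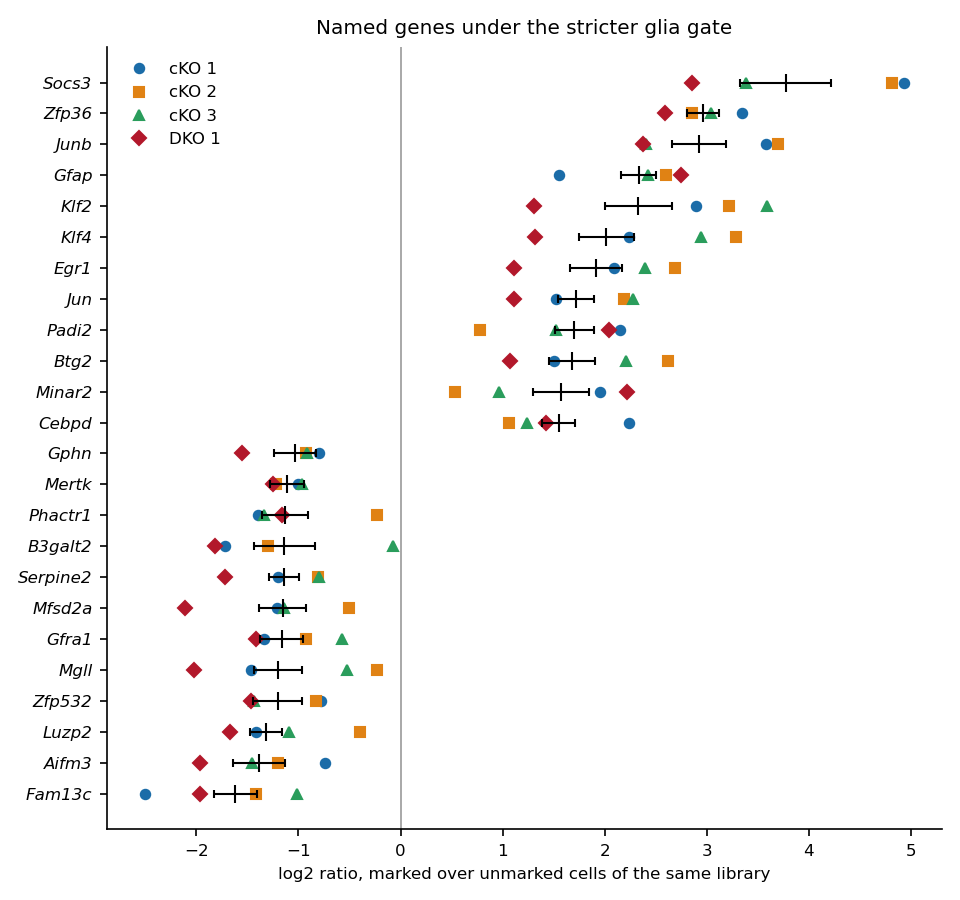
Log2 ratio of marked to unmarked glia in each Cre library (points) for the genes that the named-gene rule picked in the stricter gate, with the fitted log2 fold change and its SE (black bars). The higher genes from Socs3 to Cebpd lie right of 0 in all 4 libraries and the lower genes from Fam13c to Gphn lie left of 0.

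Other genes higher in marked glia had diverse roles. Padi2, an enzyme that turns arginine in proteins such as GFAP and myelin basic protein into citrulline, was at 234, 163, 209.9 and 96.8 CPM against 38.7, 61.6, 46.7 and 26.3 CPM. The groups did not overlap and the log2 difference was 2.05 ± 0.17 (adjusted p = 2.0e-05; 1.70 ± 0.19 in the stricter gate). C4b, complement component 4 and a gene of reactive astrocytes, was 1.68 ± 0.17 higher (adjusted p = 1.1e-04) and 1.06 ± 0.18 in the stricter gate. The reactive astrocyte list given below, which does not hold C4b, had 0 higher and 2 lower of 11 in the full gate and 2 and 0 of 7 in the stricter gate. P4ha3, a subunit of prolyl 4-hydroxylase in collagen synthesis, was at 196, 185, 163 and 183 CPM against 17.3, 68.3, 47.5 and 16.1 CPM, 2.56 ± 0.46 higher (adjusted p = 0.046). It missed the threshold in the stricter gate, at 2.18 ± 0.61 (adjusted p = 0.22), and passed it there with equal cells per depth range, at 1.90 (adjusted p = 0.0049). Reep1, which shapes the endoplasmic reticulum, was 1.78 ± 0.37 (adjusted p = 0.034), and the groups overlapped; its stricter value of 1.61 ± 0.71 was not called (adjusted p = 0.39), and with equal cells per depth range it was, at 1.05 (adjusted p = 0.014). Minar2 was 1.59 ± 0.24 higher (adjusted p = 0.002) and 1.57 ± 0.27 in the stricter gate. The unnamed transcript Gm19935 was 1.66 ± 0.21 higher (adjusted p = 4.6e-04; 1.01 ± 0.20 in the stricter gate). Of the 4 stricter fits without a library, 4 called Padi2, 3 called C4b and Minar2 and 2 called Gm19935.

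Some genes of motile cilia were higher, and the ependymal content of the gate differed between the classes, as given above; its part in these differences was not tested. Enkur, Rsph1 and Mlf1, named by the rule on the full gate, had log2 differences of 1.71 ± 0.31, 1.62 ± 0.26 and 1.61 ± 0.34 (adjusted p = 0.015, 0.0028 and 0.023). Enkur is in the ependymal list that the stricter gate limits. Its value there, 0.97 (adjusted p = 0.017, called in 1 of 4 fits without a library), is therefore a description. Under that gate Rsph1 and Mlf1 were not called, at 0.92 and 1.08 (adjusted p = 0.084 and 0.068). Of 12 ependymal genes 8 were tested and 3 were called higher, none lower, with a median of 1.64, beside 4.43% of all genes higher and 3.8% lower. Their summed level was 636.9, 341.5, 447.9 and 435.4 CPM in marked and 231.9, 453.4, 265.4 and 248.3 CPM in unmarked glia, higher in 3 of 4 libraries, though cells with the ependymal genes Ccdc153 or Tmem212 had been taken out. Riiad1 and Prune2 were also among the higher genes, at 1.61 ± 0.23 and 1.60 ± 0.20, and stood at 0.73 and 0.67 in the stricter gate (adjusted p = 0.037 and 0.21), where 1 and 0 of 4 fits without a library called them.

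Among 20 listed genes of type B NSCs, 8 were called higher and 1 lower, with a median log2 fold change of 0.31, beside 4.43% and 3.8% of all genes. In the stricter gate 6 of 19 were higher and none lower, with a median of 0.40, beside 1.69% and 1.33% of all genes. Besides Gfap, Vim and Nes these were Id3, an inhibitor of differentiation downstream of BMP signals, Igfbp5, an IGF-binding protein, and Veph1. Gfap, Vim and Nes are also in the filament list above and Id3 is in the BMP list below, so the counts of these lists overlap. A link between Gfap and Prm1 may also be built into the split, as given above. Id3 was at 1503, 1342, 1632 and 1188 CPM against 729, 1091, 888 and 555 CPM, 0.83 ± 0.14 higher (adjusted p = 0.0028). Igfbp5 was 0.92 ± 0.16 higher (adjusted p = 0.0044), but with equal cells per depth range in the same full gate it missed the threshold (1.36, adjusted p = 0.35). Veph1 was 1.11 ± 0.15 higher (adjusted p = 5.8e-04). S100a6 was called with all gated cells only, at 1.08 ± 0.17. Sox9 was called with all gated cells, at 0.65 ± 0.16. The stricter gate selects cells on Sox9, so its lack of a call there is a description. Several defining genes did not pass in either gate: Thbs4, a thrombospondin of NSCs, was -0.30 ± 0.57, Hes5, a Notch target, 0.00 ± 0.12, and Egfr, the EGF receptor of activated NSCs, 0.03 ± 0.16. The single lower gene was Prom1 at -2.76 ± 0.33, which could not be tested in the stricter gate. The unmarked class of the full gate held cells of other types, so this value is a description. A count of 1 lower gene of 20 was not read as a difference from the 3.8% of all genes.

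Calls among genes of astrocytes were few in the full gate and all lower in the stricter gate. Of 20 listed, 2 were called higher and 1 lower in the full gate (median 0.07), beside 4.43% and 3.8% of all genes. These counts lie near those shares and were not read as a difference. In the stricter gate 0 were higher and 4 lower (median -0.15), beside 1.69% and 1.33% of all genes. The stricter gate selected cells on Slc1a2, Aldoc, Gja1, Aqp4, Ntsr2 and Cldn10 of this list. The count and median of the list there are therefore partly set by the gate. The glutamate transporter Slc1a2, the gap junction protein Gja1, Aldoc and the glutamine synthetase Glul were not called, at 0.08 ± 0.12, 0.07 ± 0.13, 0.27 ± 0.12 and 0.06 ± 0.11. With equal cells per depth range the full gate gave 3 higher and 0 lower (median 0.18), where 253 and 172 of 7922 genes were called. Of the 20 log2 fold changes there, 15 were positive. The stricter gate with equal cells gave 0 and 4 (median -0.19), where 86 and 85 of 5563 were called, and 3 of 20 were positive. The lower genes named next therefore do not stand for the list in the full gate. The 4 lower in the stricter gate were Mfge8, a bridge to phagocytic receptors, at -0.59 ± 0.14, the glutamate receptor Grm3 at -0.75 ± 0.14, the sphingosine receptor S1pr1 at -0.58 ± 0.11 and the protease Htra1 at -0.43 ± 0.11 (adjusted p = 0.025, 0.0034, 0.0036 and 0.046). Slc1a3, which the gate used, is given as a description: 2768, 2814, 2748 and 2601 CPM in marked and 2288, 2383, 2200 and 2207 CPM in unmarked glia.

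The named lower genes of the stricter gate had varied roles. Fam13c was at 17.5, 44.1, 36.2 and 33.0 CPM in marked against 104, 119, 73.9 and 131 CPM in unmarked glia, -1.62 ± 0.21 (adjusted p = 1.4e-04). Serpine2, an inhibitor of thrombin and other proteases, was at 134, 140.1, 105 and 108 CPM against 309, 245, 183 and 359.7 CPM, -1.14 ± 0.14 (adjusted p = 1.3e-04). Every marked sum of both genes lay below every unmarked sum, as for 3.53% of genes tested in the stricter gate, and both kept their calls in each of 4 fits without a library. Mertk, a receptor with which astrocytes engulf synapses, was -1.11 ± 0.16 (adjusted p = 4.4e-04), also in 4 of 4 such fits. Luzp2 was -1.32 ± 0.16, again called in 4 of 4 although its groups overlapped. Mgll, the lipase of the endocannabinoid 2-arachidonoylglycerol, was -1.20 ± 0.24 (called in 2 of 4), the lysolipid transporter Mfsd2a -1.15 ± 0.23 (3 of 4) and Gfra1, a GDNF receptor, -1.16 ± 0.21 (3 of 4). The rest of the 12 were Aifm3, Zfp532, B3galt2, Phactr1 and Gphn, at -1.38, -1.20, -1.14, -1.13 and -1.04, called in 3, 2, 1, 1 and 3 of 4 fits.

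The named lower genes of the full gate were of another kind. Dcn, Col3a1, Slc6a13, Igf2, Slc6a20a and Clec3b mark fibroblasts of the meninges and vessels, C1qc, Gpr34, Selplg and Ly86 mark microglia, and Ifitm1 is high in vascular or meningeal cells. Each of these 11 had 0 to 6 UMIs summed over all 332 marked cells and 350 to 2048 over the 974 unmarked cells, and none could be tested in the stricter gate, nor 7 of them with equal cells per depth range. Dcn had 0 UMIs in marked and 1241 in unmarked cells, which makes it at least 191-fold lower by a floor of 3 UMIs over the 4 libraries together. Microglial genes summed to 37.4 to 77.1 CPM in marked and 611.4 to 3872 CPM in unmarked glia, and endothelial genes to 148.7 to 200.1 against 427.9 to 2212 CPM. Mural genes summed to 68.6 to 233.1 against 369.9 to 3871 CPM. Such genes passed the filter on low counts through the unmarked class, so these levels are a description. Of 9, 8, 8, 5 and 4 tested genes of oligodendrocytes, oligodendrocyte precursors, neurons, dividing cells and blood, 0 were called in either direction. The share called over all genes was 4.43% and 3.8%, so 0 in lists this short was not read as the lack of a difference. Blood genes had a median log2 fold change of -3.78. They summed to 18.4, 120.1, 248.3 and 267.7 CPM in marked and 4633, 7780, 383.1 and 3110 CPM in unmarked glia. The gate had also removed cells with Mog, Top2a or Mki67.

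Nuclear oxidative phosphorylation, the longest of the lists, had 24 of 73 genes higher and none lower. All 73 had positive log2 fold changes, the median being 0.32. Over all genes 424 of 9569 were higher in that fit, 253 of 7922 with equal cells per depth range, 117 of 6914 in the stricter gate and 86 of 5563 with both. The calls in this list moved with depth and gate: 7 were made with equal cells per depth range, 4 in the stricter gate and 0 with both, where the median was 0.18. The gate limited the share of the 13 genes encoded by mitochondrial DNA, so their median of 0.15 and their lack of calls are a description. The 57 cytosolic ribosomal protein genes also had 0 calls, and their median changed sign, from 0.03 in the full gate to -0.22 with equal cells per depth range and 0.27 in the stricter gate.

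Of 12 tested BMP pathway and Id genes 4 were higher and 2 lower, with a median log2 fold change of 0.49. The 2 lower genes were not Id genes, so the Id values below do not stand for the whole list. The Id genes, targets of BMP signals that hold NSCs in quiescence, stood at 0.51 ± 0.15 for Id1, 0.75 ± 0.12 for Id2, 0.83 for Id3 and 0.69 ± 0.13 for Id4 (adjusted p = 0.063, 0.0027, 0.0028 and 0.0066). Under the stricter gate Id1 and Id3 were called, at 0.77 and 0.63, and Id2 and Id4 were not, at 0.49 and 0.22. The Notch list had 0 higher and 2 lower of 12, the FGF and EGF list 0 and 2 of 12, the TGF-beta list 1 and 2 of 6, and cholesterol synthesis 0 of 22 in either direction. Of these 4 lists only cholesterol synthesis had a call in the stricter gate, 1 gene lower. Fxyd1, a regulator of the sodium pump, was higher at 1.18 ± 0.15 (adjusted p = 3.9e-04), and the small heat shock protein gene Hspb8 at 2.53 ± 0.27 (adjusted p = 7.5e-05). Reactive astrocyte genes had 0 higher and 2 lower of 11 in the full gate and 2 higher and 0 lower of 7 in the stricter gate. Over all genes 4.43% were higher and 3.8% lower in the full gate, and 1.69% and 1.33% in the stricter gate. Counts of 1 or 2 in lists this short were not read as a difference from these shares. Heat shock genes had 2 higher of 12, interferon genes 1 of 8, glutamate and potassium genes 2 higher and 1 lower of 13, and synaptogenic factors 2 and 2 of 8. With equal cells per depth range 253 of 7922 genes were higher and 172 lower. The higher and lower calls there were 3 and 1 of 10 for the BMP list and 0 and 0 of 10 for FGF and EGF. They were 1 and 0 of 22 for cholesterol synthesis, 1 and 0 of 10 for reactive astrocytes and 3 and 0 of 20 for astrocytes. Heat shock had 1 and 0 of 12, synaptogenic factors 2 and 1 of 7 and type B NSCs 7 and 1 of 20. Intermediate filaments had 2 and 0 of 4 and ependymal genes 2 and 0 of 5. Among the other named genes, Mlf1, Zfp532, Mgll and Grm3, called in the full gate, missed the threshold there with equal cells (adjusted p = 0.054, 0.092, 0.12 and 0.12). Of the genes around Prm1, Prm2 and Tnp2 had 0 UMIs in marked, unmarked and control glia, and Prm3 had 0 in marked, 1 in unmarked and 3 in control glia.

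Vcam1 (chromosome 3, 116109949 to 116129688), the adhesion molecule floxed in the DKO mice, was lower in marked than in unmarked glia of the DKO library. Marked DKO glia held 19 Vcam1 UMIs, 25.7 CPM (exact Poisson 95% interval 15.5 to 40.1), and unmarked DKO glia 500 UMIs, 134 CPM (122 to 146). The level was 5.21-fold lower in marked glia (3.30 to 8.72), and 4.10-fold lower in the stricter gate (2.50 to 7.24). These intervals cover counting error only, and the library has no replicate. In the cKO libraries, where Vcam1 is not floxed, marked and unmarked glia had 257 and 199, 173 and 235, and 217 and 198 CPM. With the stricter gate the ratio of marked to unmarked glia was 1.16 (0.919 to 1.46), 0.747 (0.567 to 0.982) and 0.788 (0.657 to 0.948) in the cKO libraries, below 1 in 2 of 3, against 0.244 (0.138 to 0.400) in the DKO library. Within the DKO library Vcam1 stood at 134, 99.3, 35.7 and 4.24 CPM in cells with 0, 1 to 2, 3 to 6 and 7 or more Prm1 UMIs, the last from 1 UMI (0.107 to 23.6 CPM), while the same classes of the cKO libraries lay between 164 and 291 CPM and control glia between 167 and 199.6. Paired over all 4 libraries Vcam1 was not called, at -0.30 ± 0.47 (adjusted p = 0.79), and without the DKO library the log2 difference was 0.09.

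Prdm16 (chromosome 4, 154316125 to 154636873), the chromatin regulator floxed in all 4 Cre libraries, was not called between the classes. It was at 20.2, 40.5, 40.7 and 43.3 CPM in marked and 47.7, 46.7, 28.3 and 52.7 CPM in unmarked glia, and at 44.3 to 63.3 CPM in control glia. The groups overlapped, and the paired log2 difference was -0.15 ± 0.24 (adjusted p = 0.78; -0.58 ± 0.22 with adjusted p = 0.16 in the stricter gate). Within libraries it was 2.36-fold lower in marked glia of cKO replicate 1 (1.28 to 4.85, counting error only, 11 UMIs in marked cells), and the intervals of the other 3 libraries included a ratio of 1. In the stricter gate it was lower in marked glia by 2.45-, 1.79-, 1.04- and 1.49-fold, and the interval lay above 1 in cKO replicate 1 alone (1.20 to 5.80). A 3′ library counts the end of the transcript, which remains if a transcript is still made from a recombined allele, so these counts do not measure how many cells had lost Prdm16.

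**Figure D4:**
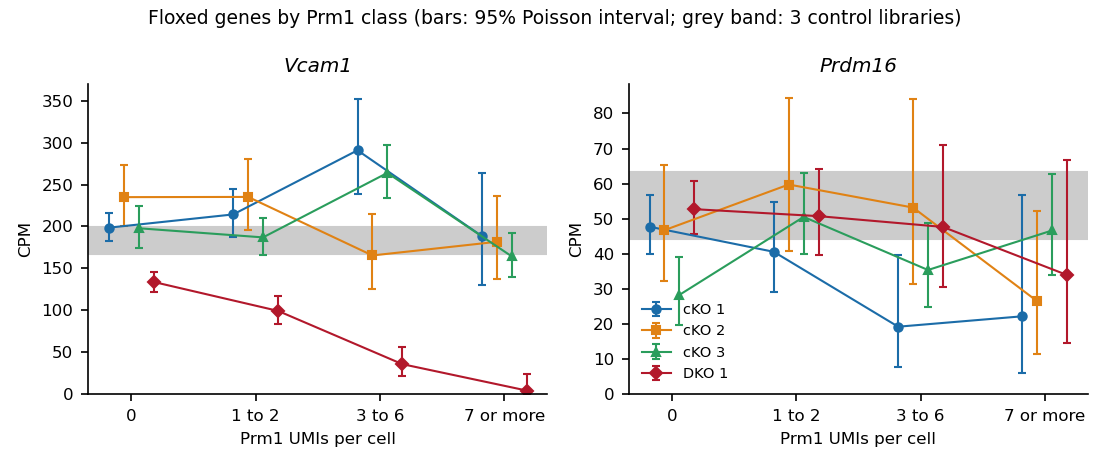
Vcam1 and Prdm16 (CPM of summed UMIs, with exact 95% Poisson intervals that cover counting error only) by Prm1 UMIs per cell in each Cre library, with the range of the 3 control libraries as a grey band. Vcam1 falls from 134 to 4.24 CPM across the classes of the DKO library and stays between 164 and 291 CPM in the cKO libraries, and Prdm16 at 7 or more Prm1 UMIs lies below its level at 0 in 3 libraries and above it in cKO replicate 3, with overlapping intervals.

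Unmarked cKO glia were compared with control glia to see what remained of the cKO difference in cells without Prm1. Of 14124 genes, 2 (0.0142%) were higher, Dcn and Scel, and 0 (0.0%) lower by edgeR's quasi-likelihood test, with 1291 genes at an unadjusted p under 0.05, while DESeq2 called 212 higher and 17 lower. More genes were also called with the replicate number as a block, as given below. Dcn marks fibroblasts, and the microglial, endothelial and mural lists had medians of 1.27, 1.45 and 2.25 in this comparison, with 0 calls. With the stricter gate 11 genes were higher and 9 lower. Of 16 immediate early genes 5 were among those lower (median -1.52), and Socs3 was -2.21 ± 0.29 (adjusted p = 0.0011). With a library left out, the stricter counts ran from 2 and 2, without cKO replicate 2 or control replicate 2, to 261 and 190, without cKO replicate 1. Marked cKO glia, set against the same control libraries, had 591 genes higher (4.62%) and 623 lower (4.87%) of 12781, 286 and 318 without cKO replicate 3, and 363 and 274 of 11505 in the stricter gate, 199 and 121 there without cKO replicate 3. Gfap was 1.94 ± 0.21 in marked cKO glia against control (adjusted p = 5.9e-07) and -0.93 ± 0.23 in unmarked cKO glia (adjusted p = 0.35). Since control cells are not divided by Prm1, each cKO class is a selected part of its library and the control is not.

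The low count in unmarked glia came with a split between the libraries. The unmarked glia of cKO replicate 1 and of the DKO library lay nearer to control than those of cKO replicates 2 and 3, for 6 genes picked after their values were seen. P4ha3 was at 18.0, 70.1, 47.1 and 16.6 CPM in unmarked glia and 10.6 to 16.2 in control (unscaled sums, as for the next genes). Agt, the precursor of angiotensin and a gene of astrocytes, was at 152, 627, 620.2 and 121 CPM in unmarked glia and 27.6 to 63.0 in control. Reep1 stood at 7.71, 48.1, 51.8 and 14.7 CPM against 4.38 to 8.56, and the pentraxin gene Ptx3, which binds matrix and complement, at 46.6, 151, 133 and 48.2 CPM against 18.8 to 30.5. Luzp2 went the other way, at 279, 66.0, 76.2 and 376 CPM against 309.8 to 392 in control. Without cKO replicate 1 the same fit called 868 genes higher and 389 lower (261 and 190 in the stricter gate), with log2 fold changes of P4ha3 at 2.13, Agt at 3.87, Reep1 at 3.03, Ptx3 at 2.61, Luzp2 at -2.37 and Mgll at -2.28, whereas with all libraries none of the 6 was called.

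**Figure D5:**
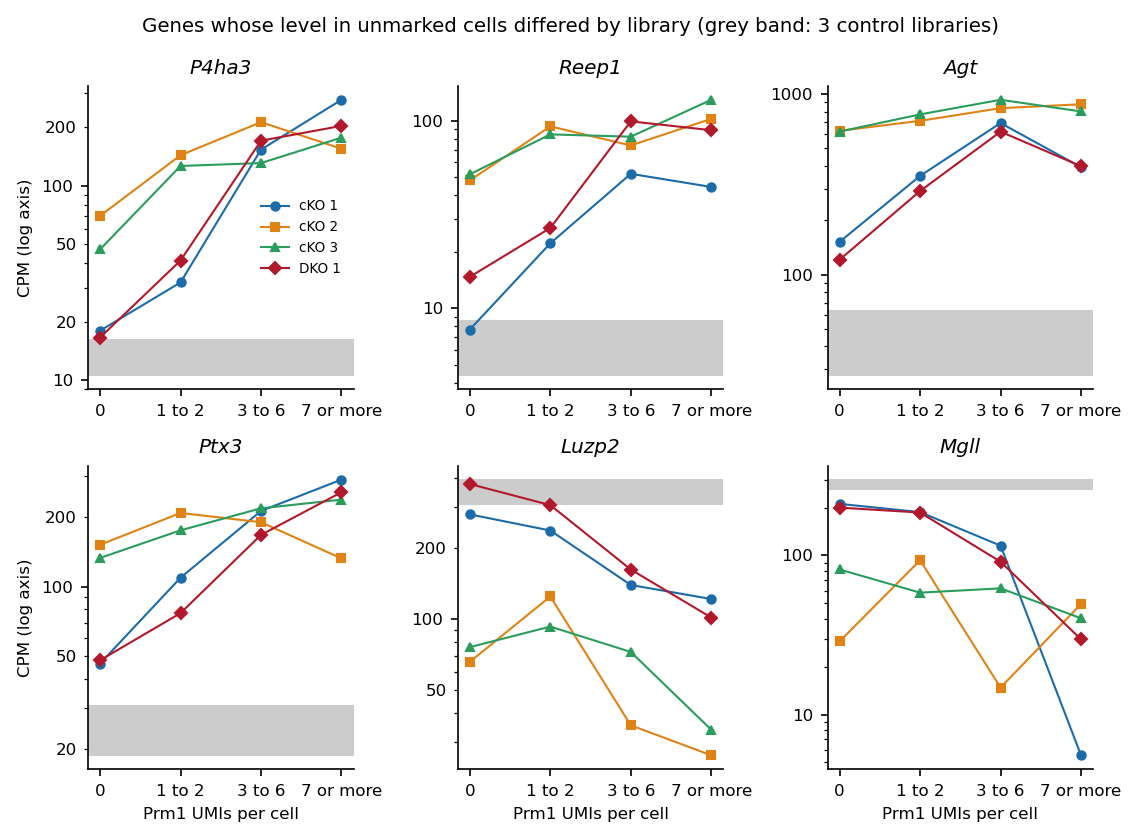
Level (CPM, log scale) of P4ha3, Reep1, Agt, Ptx3, Luzp2 and Mgll by Prm1 UMIs per cell, with a line for each Cre library and the range of the 3 control libraries as a grey band. At 0 Prm1 UMIs, the glia of cKO replicates 2 and 3 lie farther from the band than those of cKO replicate 1 and the DKO library.

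The same split was seen over the genes that marked cKO glia and control glia differed in. In the stricter gate 313 such genes reached an average log2 CPM of 5, 159 higher and 154 lower. Their median log2 shift from control, signed by the direction in marked cKO glia, was 1.00, 1.14, 1.05 and 0.93 in marked glia of the 4 libraries and 0.17, 0.83, 0.94 and 0.11 in unmarked glia. Both classes were set against the same 3 control libraries, so their shifts are not independent. With all gated cells the 489 genes gave 0.90, 0.94, 0.92 and 0.75 in marked and 0.10, 0.52, 0.35 and 0.10 in unmarked glia. The marked cKO values chose these genes, so the shifts describe the libraries and carry no test. The unmarked libraries with a large shift were those with the highest marked share, 26.0% and 36.8% against 10.7% and 10.6%. Their median depth in gated glia was 11271 and 10049 UMIs against 6660 and 9367, their astroglial content was lower, with 60.5% and 53.4% of unmarked cells passing the stricter gate against 79.0% and 80.0%, and the part of any of these in the split was not tested.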

How the data were processed

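The deposited values were raw UMI counts per gene and cell, which the authors made from 10x 3′ v3.1 libraries with Cell Ranger (versions 6.0.1 and 6.1.1 in the file headers) on mm10, in matrices filtered for cell barcodes. Nothing was normalized before deposit. Here each cell was gated as described, and UMIs were summed per library and class. Sums were tested with edgeR 4.0.16 (R 4.3.3, TMM scaling, filterByExpr, robust quasi-likelihood fit, Benjamini-Hochberg adjusted p under 0.05). Marked and unmarked sums were paired by library, and cKO sums were compared with control in a fit of all libraries. Named genes were the 12 largest changes in each direction among called genes whose average log2 CPM reached 5 and that had the same direction in 4 of 4 libraries, a rule applied again to the stricter gate after seeing the data, besides Gfap, Vcam1, Prdm16 and the list members with the smallest p. Of these, 1 lower gene of the full gate is not reported here. The members, lists and tests were chosen with earlier results of these data known. Libraries of 1 group are separate pools of mice. In tests on simulated data for the marked against unmarked comparison (9569 genes), 200 genes were changed at a time. Of those changed 2-fold, 147 (73.5%) were recovered, with 7 false calls. Of those changed 3-fold, 186 (93%) were recovered, with 9 false calls. These are shares of the 200 changed genes, and how far they hold at the measured differences between libraries was not tested. Scrublet marked 5 marked and 11 unmarked cells as doublets. Alternatives were DESeq2 1.42.0, other thresholds, depth matching, thinning, doublet removal, no filter on low counts and leaving out each library. Of the features, 32235 of 32285 were found in GENCODE vM21.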

Additional observations from a re-analysis of the deposited data

Results flagged for a closer look

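Log2 ratios of marked to unmarked glia in the 4 libraries were examined for 49 values for a library far from the other 3, and 2 had a gap above the 95% critical value of Dixon's ratio for 4 samples, which chance alone passes in about 1 in 20. Gm19935 had a log2 ratio of 0.602 in cKO replicate 2 and 1.80 to 1.96 in the others. Egr1 had a log2 ratio of -0.1113 in cKO replicate 3 and 1.04 to 1.13 in the others, and in the stricter gate every library had a positive ratio.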

How the results depend on the processing

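The number of genes called between marked and unmarked glia (424 higher, 364 lower) stayed within 1.5 times with Prm1 thresholds of 2 or 5, with at most 5% mitochondrial UMIs and without doublets. The higher and lower counts were 240 and 241 with DESeq2, 205 and 190 with cells thinned to 5000 UMIs, 89 and 201 in cells with 0 to 2 Gfap UMIs, 80 and 53 in cells with at least 3 (without cKO replicate 2, which had too few unmarked cells), 253 and 172 with equal cells per UMI bin and 696 and 1049 with no filter on low counts. In the stricter gate, which was added after seeing the data, they were 117 and 92, with 0 to 2 Gfap UMIs 11 and 9, with equal cells per UMI bin 86 and 85, and with at least 5 Prm1 UMIs 214 and 165. Leaving out each library gave 130 to 361 higher and 152 to 434 lower, the fewest without cKO replicate 3. Without the library as a replicate block they were 170 and 143.

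For unmarked cKO against control glia (2 and 0), the counts were 212 and 17 with DESeq2, 428 and 131 with no filter, 11 and 9 in the stricter gate, and 0 higher without the DKO library in the fit or with the Cell Ranger version as a term. Leaving out each library gave 0 to 868 higher and 0 to 389 lower, the highest without cKO replicate 1. For marked cKO against control glia (591 and 623) DESeq2 called 410 lower, the stricter gate 363 and 274, and leaving out each library 286 to 530 higher and 318 to 546 lower. With the replicate number as a block the unmarked counts were 78 and 5 and the marked ones 764 and 782. Same-numbered control and cKO libraries correlated at 0.14, 0.03 and 0.24 in marked and 0.18, 0.09 and 0.20 in unmarked glia. Every control library correlated best with its own number. The Cell Ranger version also went by number, 6.0.1 for replicates 1 and 2 and 6.1.1 for replicate 3 of both groups. The labels do not name the numbers as pairs, so the main fits left them unpaired, and a shared batch was not tested. The excess of median UMIs in marked glia, 3305, was 57.6 with equal cells per bin, as that setting is built to give, and 2156.3 to 4006.5 with each library left out.

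Of the named genes, the log2 difference changed sign for Prdm16 (0.0428 in cells with 0 to 2 Gfap UMIs, 0.0255 with equal cells per bin, 0.24 with at most 5% mitochondrial UMIs and -0.4862 to 0.0628 with each library left out, the highest without cKO replicate 1), Vcam1 (-0.6051 to 0.0855 with each library left out, the highest without the DKO library), Btg2 (-0.0783 with at most 5% mitochondrial UMIs), Klf4 (-0.0315, -0.0818 and -0.069 in cells with 0 to 2 Gfap UMIs, with equal cells per bin and at 2 Prm1 UMIs, and -0.33 to 0.5082 with each library left out, below 0 without cKO replicate 1 or the DKO library) and Klf2 (1.13 in cells with at least 3 Gfap UMIs, and 2.33, 2.64, 2.68 and 3.00 in the 4 stricter settings above). Only Klf2 was called in any of the settings that changed its sign. Except where a setting tests fewer cells or genes by construction, the cause was not tested. The marked class held 44 to 165 cells per library, which limits the precision of its sums.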
